A study of Mus musculus with 8 samples.

Results

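The noncoding genes with the most reads in cultures of embryonic mouse heart cells are described here. They were chosen by their raw counts alone, as the rows of the noncoding count table with 1000 or more raw counts in every one of 8 libraries, leaving out NONMMUG020671, NONMMUG020672 and NONMMUG020673, which together hold from 27.8% to 45.0% of the table's counts per library. This rule gave 152 IDs of 46475 in the table, of which 12736 had any count. The cells were primary cardiomyocytes from E18.5 mouse embryos of B6.Cg-Tg(HIST1H2BB/EGFP)1Pa/J mice, whose fluorescent histone transgene is shared by every library. For 4 days they were kept on silicone rubber (polydimethylsiloxane) that was either stiff (about 150 kPa, 4 libraries) or soft (about 10 kPa, 4 libraries), and total RNA was sequenced. The cells came from digested hearts, and the labels name no sort. No label states that the 4 libraries of a group are separate litters or cultures, and the spread behind each p-value may thus be technical.

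Long noncoding RNAs are transcripts for which no protein product is known. Some act in the nucleus on chromatin and splicing, others bind proteins or microRNAs in the cytoplasm, and for many no role is known. In the heart, individual ones have been tied to the choice of the cardiac lineage and to the response of muscle to load. Catalogues of them hold independent genes beside transcripts that overlap a protein-coding gene or lie next to it. The IDs used here are those of the deposited table. None of them matched a symbol in the name tables used here, and no coordinates or lengths come with them, so no gene name, role, position or sequence is given for any of the 152. Levels are CPM, counts of a library scaled to the same fixed total, made within the noncoding table with TMM factors for library composition and called noncoding CPM. Without lengths, a higher CPM means more reads and not more molecules.

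Noncoding totals ran from 2135712 to 2463946 counts in the stiff libraries and from 1992836 to 2505251 in the soft libraries, beside coding totals of 27924797 to 34693673 on stiff and 27646471 to 30701041 on soft. The 10 cardiomyocyte markers summed to 24216 to 33836 coding CPM on stiff and 22946 to 39798 on soft, where coding CPM is the same unit made from the coding table. All 10 had counts, and so did all 8 fibroblast markers, which summed to 7619 to 12159 coding CPM on stiff and 8311 to 14679.6 on soft. In bulk RNA, fewer cells of a type and less RNA per cell cannot be told apart. Soft 4 had the highest cardiomyocyte and fibroblast sums, although its fibroblast sum was close to the 14320 coding CPM of soft 3. It also had 8705 coding CPM of 6 small structured RNAs, against 3012 to 4943 in the stiff libraries and 3457 to 6331 in the other soft libraries. All 6 erythroid markers were listed at 0.

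The 152 IDs held a similar part of the noncoding table on both substrates. They took 20.5%, 27.2%, 23.0% and 24.6% of noncoding counts in stiff 1 to 4, and 22.2%, 20.2%, 23.8% and 27.0% in soft 1 to 4. The 2 ranges overlap almost completely, and the means were 23.8% ± 2.79 on stiff and 23.3% ± 2.89 on soft (SD, n = 4 each). With the 3 left-out IDs taken out of the total, the share was 36.9% ± 1.82 on stiff and 36.9% ± 0.564 on soft. Of both tables together, the 152 IDs held 1.66% ± 0.0913 on stiff and 1.64% ± 0.0429 on soft. Before scaling, the threshold of 1000 raw counts equals 406 to 468 noncoding CPM in the stiff libraries and 399 to 502 in the soft libraries. Just inside it lay NONMMUG016266 and NONMMUG016310, whose lowest library had 1003 raw counts each, and NONMMUG025891 with 1004. Just outside it lay NONMMUG014945, NONMMUG016646 and NONMMUG019802, with 996, 994 and 986 raw counts in the lowest library.

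Reads were unevenly spread over the 152, although most of them lay outside the 10 highest IDs. Mean levels over the 8 libraries ran from 531 to 12806 noncoding CPM, with a median of 1045. Only 4 IDs averaged over 5000 noncoding CPM, 25 lay between 2000 and 5000, 52 between 1000 and 2000, and 71 under 1000. The 10 highest held 25.6% to 27.9% of the reads of all 152 in the stiff libraries and 24.7% to 28.9% in the soft libraries.

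NONMMUG005057 had the most reads, with 12651, 13432, 12427 and 12605 noncoding CPM in stiff 1 to 4 and 12429, 10196, 11068 and 17638 in soft 1 to 4. The 4 stiff libraries lay within the soft range, and soft 4 was the highest of all. NONMMUG024269 followed, with 11803, 13084, 9886 and 8858 noncoding CPM in stiff 1 to 4 and 11042, 10164, 9619.5 and 12722 in soft 1 to 4. NONMMUG005057 exceeded NONMMUG024269 in all 8 libraries, by 1.17-fold in the geometric mean. It is the sole pair of neighbours, among the 151 pairs in the order of mean level, that kept its order in every library.

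NONMMUG016423 stood at 6186, 9252, 10577 and 10992 noncoding CPM in stiff 1 to 4 and at 7899.7, 8755, 12606 and 10686 in soft 1 to 4. Libraries 1 and 2 of each substrate were below libraries 3 and 4. NONMMUG016071 had the opposite order, with 7867, 10241, 6395 and 4422 noncoding CPM on stiff and 7838, 8748, 6651 and 4481 on soft. Its lowest value on either substrate came from library 4, and its highest from library 2.

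The next 6 by level averaged between 3320.2 and 4754 noncoding CPM. NONMMUG039523 stood at 4583 ± 953 noncoding CPM on stiff and 4925 ± 1029 on soft (SD, n = 4 each, as for the others). NONMMUG005229 stood at 3866 ± 346 on stiff and 4401 ± 1587 on soft, where soft 2 had 2544 and soft 4 had 6347. NONMMUG016425 stood at 3884 ± 559 on stiff and 3598 ± 631 on soft, and NONMMUG019341 at 3700.0 ± 746 on stiff and 3632 ± 1139 on soft. NONMMUG016421 stood at 3302 ± 614 on stiff and 3843 ± 1036 on soft, and NONMMUG038408 at 3327 ± 594 on stiff and 3313 ± 526 on soft. From NONMMUG016425 to NONMMUG038408, each ID exceeded the next one in 4 of 8 libraries, so the order of these 4 was not settled. The log2 fold changes (stiff over soft) of the 10 IDs with the most reads ran from -0.22 for NONMMUG016421 (SE 0.23) to 0.11 for NONMMUG016425 (SE 0.21), each smaller than its SE, and their groups overlapped. Without soft 3 that of NONMMUG016421 was -0.07, and without soft 4 that of NONMMUG016425 was 0.02.

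**Figure D1:**
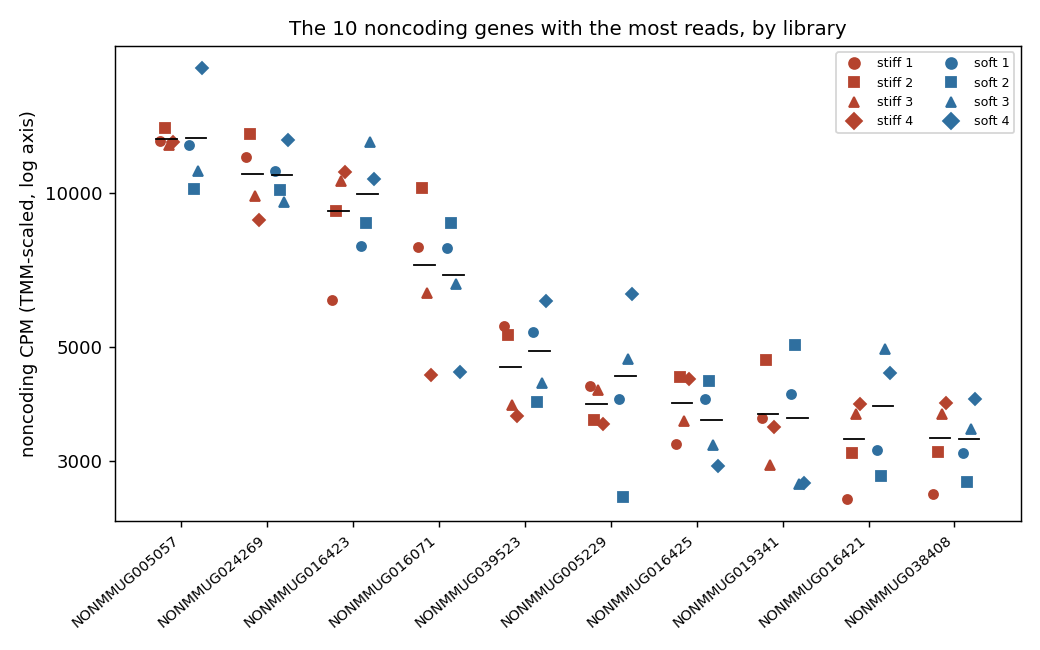
Noncoding CPM (log axis) of the 10 IDs with the highest mean level, in 4 stiff (red) and 4 soft (blue) libraries, with a bar at the mean of each substrate and a marker shape for each library number. The red and blue points overlap for each ID, and soft 4 is the highest library for NONMMUG005057 at 17638 noncoding CPM.

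The comparison of stiff with soft asks how substrate stiffness affects long noncoding RNA in these cells. It was run on the 5747 noncoding IDs that passed the filter on low counts, with edgeR's quasi-likelihood test, and all 152 passed that filter in both groups by the rule that chose them. No ID of the 152 was called at a Benjamini-Hochberg adjusted p under 0.05, against a background of 0% of the 5747 IDs, and the lowest adjusted p of the 152 was 0.99995. An unadjusted p under 0.05 was found for 0 of the 152, against 57 of 5747 (0.992%), and the lowest unadjusted p of the 152 was 0.162. DESeq2 and limma-voom called 0 of the 152 as well, with 0 at an unadjusted p under 0.05 by either tool.

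Estimates fell on both sides of 0. On stiff, 75 of the 152 had higher and 77 lower estimates, against 47% of all tested IDs with higher ones. The log2 fold changes (stiff over soft) ran from -0.31 to 0.32 with a median of -0.01, beside a median of -0.04 over all tested IDs. No ID differed by more than 1.5-fold between the substrate means, the ratios of which ran from 0.808 to 1.25.

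The rule, which asks for many reads in every library, leaves IDs with narrower intervals than a table of mostly low counts, so the values of the table stand here as a description. The 95% interval of the fold change reached 1.40-fold to either side of the estimate in the median of the 152 (1.32-fold to 1.62-fold over them), against 4.14-fold in the median of all tested IDs. The interval lay inside a 2-fold change in either direction for 152 of 152, against 955 of 5747 in the table, and inside a 1.5-fold change for 74 of the 152. These intervals are not adjusted for the number of IDs, and a p that misses the threshold does not show that the substrates gave equal levels.

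**Figure D2:**
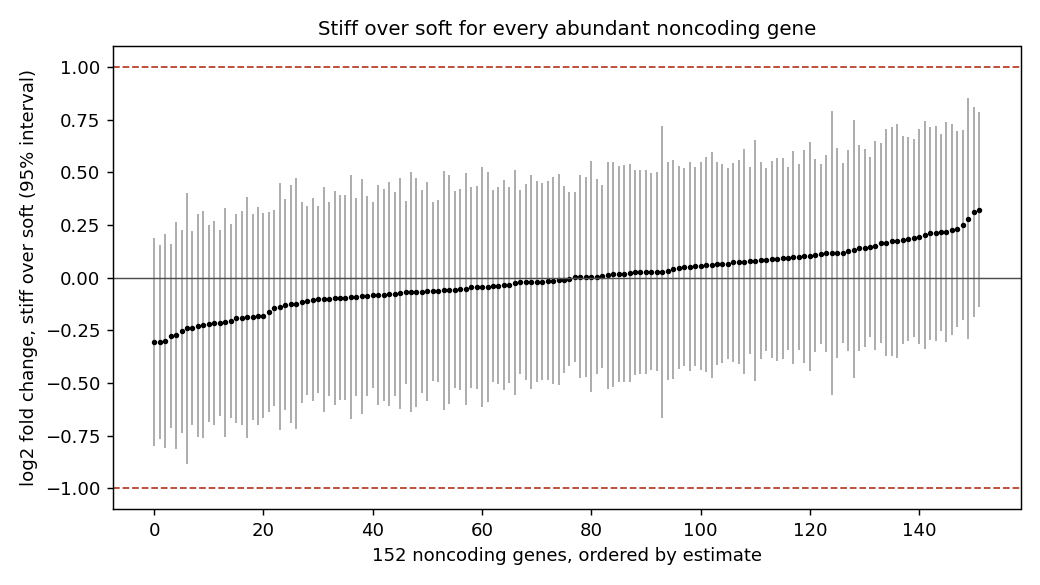
Log2 fold change of stiff over soft for each of the 152 IDs, ordered by estimate (points), with unadjusted 95% intervals (grey lines) and dashed lines at a 2-fold change in either direction. Estimates run from -0.31 to 0.32, and all 152 intervals lie between the dashed lines and include 0.

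Substrates did not overlap for 3 of the 152 IDs. One of them was higher on stiff in each library, which is 0.658% of the 152 against 0.887% of all tested IDs, and 2 were lower on stiff, which is 1.32% against 1.04%. These shares are close to those of the whole table. NONMMUG002021, the higher one, had 707, 829, 736 and 678 noncoding CPM in stiff 1 to 4, against 606, 637, 507 and 609 in soft 1 to 4. Its lowest stiff library stood just above its highest soft library. The log2 fold change was 0.32 (SE 0.22, edgeR adjusted p = 0.99995). NONMMUG017111 had 608, 623, 661 and 499 noncoding CPM on stiff, against 737, 690.4, 726 and 802 on soft, with a log2 fold change of -0.31 (SE 0.22). NONMMUG014902 had 1494, 1382, 1496 and 1128 noncoding CPM on stiff, against 1557, 1497, 1844 and 1760.0 on soft, with a log2 fold change of -0.28 (SE 0.21). For NONMMUG014902 the gap between the substrates was about 1 noncoding CPM.

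The other IDs of lowest p overlapped between the substrates. NONMMUG005642 stood at 748 ± 149 noncoding CPM on stiff and 603 ± 118 on soft, NONMMUG045629 at 1638 ± 300.3 on stiff and 1379 ± 166 on soft, and NONMMUG039919 at 1471 ± 378 on stiff and 1254 ± 103 on soft (SD, n = 4 each). For NONMMUG045629 and NONMMUG039919 the highest library was stiff 2, at 2050.0 and 2014 noncoding CPM. Without stiff 2 the log2 fold change of NONMMUG039919 was 0.04, against 0.23 with all libraries, and that of NONMMUG045629 was 0.13, against 0.25. Lower in their means on stiff were NONMMUG006159, at 762 ± 97.4 noncoding CPM on stiff and 943 ± 240.5 on soft, and NONMMUG039864, at 2512 ± 349.6 on stiff and 3093 ± 1248 on soft. For NONMMUG039864 soft 4 was far above the rest, with 4890.3 noncoding CPM against 2006 to 2808 in the other soft libraries, and without soft 4 its log2 fold change turned to 0.01.

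**Figure D3:**
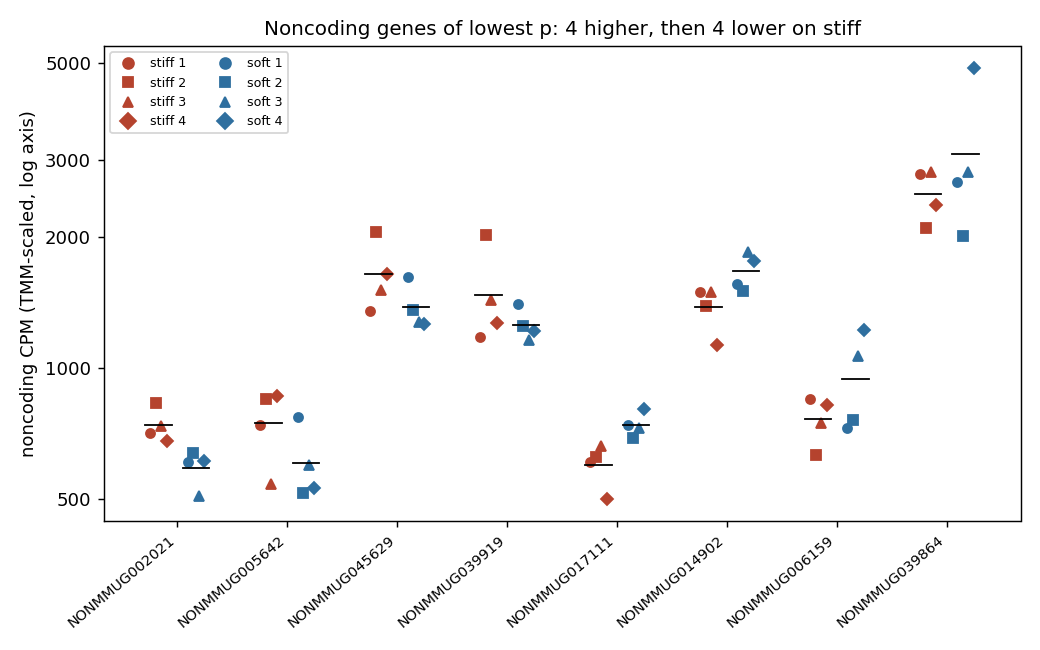
Noncoding CPM (log axis) of the 4 IDs of lowest p with higher and the 4 with lower estimates on stiff, in 4 stiff (red) and 4 soft (blue) libraries, with a bar at the mean of each substrate. Red and blue points are separate for NONMMUG002021, NONMMUG017111 and NONMMUG014902 and overlap for the other IDs.

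Levels also varied among the libraries of a substrate. The coefficient of variation within a substrate ran from 9.15% to 48.9% over the 152 with a median of 20.8%. The highest library exceeded the lowest by 1.26-fold to 3.35-fold (median 1.78-fold), and by over 2-fold for 51 IDs. Between the highest and lowest library of the same substrate, 88 IDs differed by over 1.5-fold on stiff and 82 on soft, a range of single libraries that cannot be set against the difference of 2 means. The steadiest were NONMMUG023748, at 583 ± 47.0 noncoding CPM on stiff and 597 ± 60.4 on soft, NONMMUG035873, at 721 ± 43.0 on stiff and 742 ± 85.2 on soft, and NONMMUG002021.

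The most variable was NONMMUG008476, with 609, 990.1, 933 and 1607 noncoding CPM in stiff 1 to 4 and 633, 753, 812 and 1862 in soft 1 to 4. Library 4 was the highest of each substrate. NONMMUG023774 was next, with 2413, 1703, 2677 and 3568 noncoding CPM on stiff and 2455, 1769, 2411 and 5606 on soft. Without soft 4 its log2 fold change was 0.23, and with all libraries -0.24. NONMMUG015983 ran the other way, with 3919, 4911, 2419.9 and 2032 noncoding CPM on stiff and 3887, 4417, 2446 and 1508 on soft. Here libraries 1 and 2 were high on both substrates, and soft 4 was the lowest of all.

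This variation was partly shared among the IDs. Each ID's log2 CPM was set relative to its own mean over the 8 libraries, and a principal component analysis was made of these differences across the 152. The first component took 47.0% of the variance and the second 18.7%. On the first component soft 4 had a weight of 0.65, soft 3 and stiff 3 had 0.21 and 0.22, stiff 4 and stiff 1 were near 0 with 0.08 and 0.01, and soft 1, stiff 2 and soft 2 had -0.24, -0.46 and -0.47. The component therefore ranked libraries across the substrates rather than by substrate. Without soft 4 the first component took 40.4%, and without stiff 2 it took 45.6%.

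Counted by library, stiff 2 was the highest of the 8 for 47 IDs and soft 4 for 41, which leaves 16 each for stiff 4 and soft 2, 13 for soft 1, 8 for soft 3, 7 for stiff 3 and 4 for stiff 1. Scaled by coding-table factors instead, stiff 2 was the highest for 39 and soft 4 for 38. The median log2 difference from an ID's own mean was 0.212 in stiff 2 and -0.0196 in soft 4. With coding-table factors these medians were 0.182 and -0.0477. Stiff 2 was thus above the mean for most of the 152, whereas soft 4 lay on both sides of it. Soft 4 was below the mean for 78 of the 152, and 73 of these 78 were above their mean in stiff 2 and 60 in soft 2. Of the 74 that were above their mean in soft 4, 60 were below it in soft 2 and 39 in stiff 2. The values of an ID are set against a mean that includes all 8 libraries, so these signs are not independent.

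**Figure D4:**
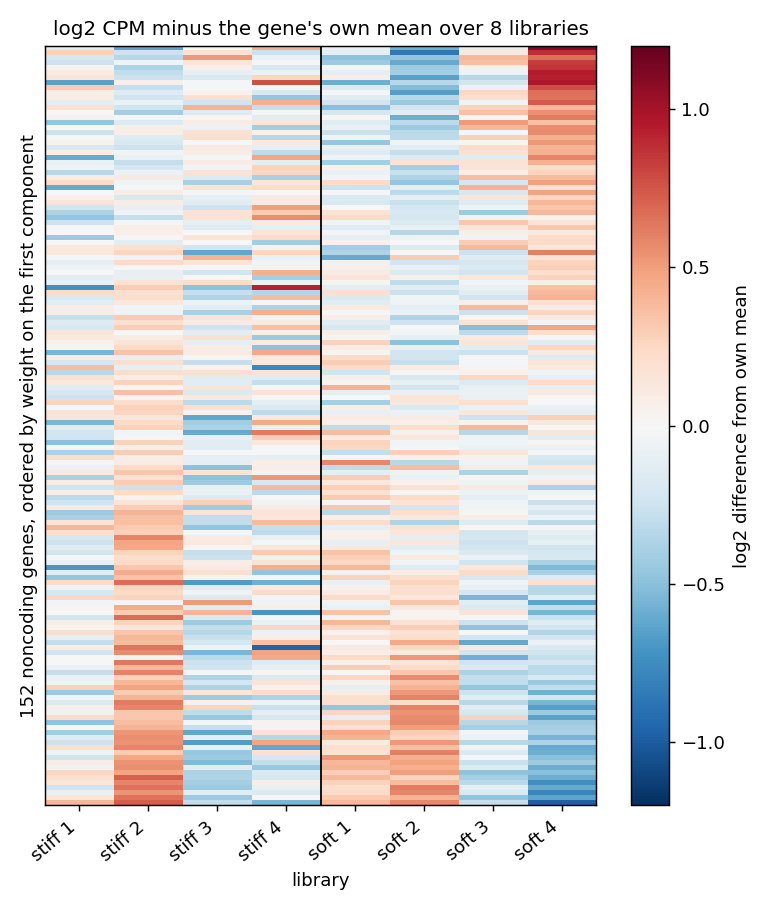
Log2 noncoding CPM of each of the 152 IDs (rows) minus its own mean over the 8 libraries (columns, stiff left of the black line and soft right of it), red above and blue below that mean. Rows are ordered by weight on the first component. Soft 4 runs through red at the top to blue at the bottom, and soft 2 and stiff 2 run the opposite way.

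At the soft 4 end of the first component were NONMMUG023774, NONMMUG042978, NONMMUG037825, NONMMUG011061 and NONMMUG039864. In soft 4 these stood at 1.73-fold to 2.53-fold of the mean of the other soft libraries. NONMMUG042978, for example, had 1783, 1236, 1661 and 1232 noncoding CPM in stiff 1 to 4 and 1375, 813, 1594 and 2721 in soft 1 to 4. At the other end were NONMMUG015983, NONMMUG024029, NONMMUG016753, NONMMUG016826 and NONMMUG017587, which in soft 4 stood at 0.421-fold to 0.588-fold of the mean of the other soft libraries and in stiff 2 at 1.55-fold to 1.86-fold of the mean of the other stiff libraries. NONMMUG016753 had 2914, 4472, 2851 and 2752 noncoding CPM on stiff and 3649, 4669.7, 2728 and 1806 on soft.

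Soft 4, at one end of the component, was also the highest or lowest library in other measures. In these the other libraries were in the order of their weights only in part. The cardiomyocyte markers summed to 28948, 24216, 25000.2 and 33836 coding CPM in stiff 1 to 4 and to 23894, 23045, 22946 and 39798 in soft 1 to 4. The fibroblast markers summed to 7619, 8939.7, 12159 and 11348 on stiff and to 8311, 9094, 14320.1 and 14679.6 on soft. Soft 4, soft 3, stiff 3 and stiff 4 had the highest of these sums and also the highest weights. The small structured RNAs summed to 4449, 3235, 4943 and 3012 coding CPM on stiff and to 4105, 3457, 6331 and 8705 on soft. Here soft 4, soft 3 and stiff 3 were again the highest, whereas stiff 4 was the lowest. The 3 left-out IDs held 42.0%, 31.1%, 37.6% and 31.2% of noncoding counts on stiff and 40.6%, 45.0%, 34.3% and 27.8% on soft. Stiff 2 and soft 2, with nearly equal weights on the component, were thus far apart in this last share, and the lowest cardiomyocyte sum came from soft 3, which had a positive weight. The part of any of these in the levels of the 152 IDs was not tested.

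Some of the 152 kept a near-constant ratio to each other in all libraries. Likeness was taken as the SD, over the 8 libraries, of the log2 ratio of raw counts of 2 IDs, in which the depth of the library cancels. Over all 11476 pairs of the 152 its median was 0.391. The pairs named next were picked for having the smallest of these SDs. Low values are bound to occur among so many, so they do not by themselves show a link between IDs. The closest pair was NONMMUG024029 with NONMMUG017587, with an SD of 0.0808 and a ratio between 0.936 and 1.12. In stiff 1 to 4 they had 4226 and 4023, 5946 and 5439, 3365 and 3266, and 4606 and 4563 raw counts. In soft 1 to 4 they had 4917 and 4592, 4955 and 4644, 2648 and 2830, and 2523 and 2245 raw counts. The next pairs were NONMMUG014904 with NONMMUG037564 (SD 0.0902), NONMMUG014902 with NONMMUG017111 (0.0911), NONMMUG026600 with NONMMUG015737 (0.0920) and NONMMUG036158 with NONMMUG005055 (0.0921). The IDs of these pairs do not follow each other in number. The third of these pairs joins the 2 IDs that were lower in each stiff library than in any soft one, so those are not separate observations of a difference.

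IDs that follow each other in number were not always alike. There were 10 pairs of consecutive IDs among the 152. The ratio of NONMMUG039864 to NONMMUG039865 had an SD of 0.153, and that of NONMMUG018800 to NONMMUG018801 one of 0.193. For NONMMUG015737 and NONMMUG015736 it was 0.461, above the median of all pairs, with a ratio between 0.621 and 1.63. The others lay between 0.211 and 0.377.

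Ratios to protein-coding genes were also examined. Each of the 152 was set against 10516 genes of the coding table with at least 100 counts in every library, and the gene of the steadiest ratio was kept. The smallest of so many SDs is bound to be low, and likeness here says nothing of shared function, control or reads. Its median over the 152 was 0.0821, and it ran from 0.0373 to 0.159. The 152 had 149 different nearest genes. No gene had a raw count within 5% of that of an ID in all 8 libraries.

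The closest was NONMMUG010172 with Cul4a, the scaffold gene of a ubiquitin ligase. Its counts were 0.781 to 0.852 of those of Cul4a (SD 0.0373). Next came NONMMUG032328 with Golim4, a Golgi membrane protein gene, at 0.206 to 0.222 (SD 0.0415), and NONMMUG035873 with Ifnar1, a subunit gene of the receptor for type I interferons, at 0.688 to 0.757 (SD 0.0446). NONMMUG016612 had 0.842 to 0.934 of the counts of Kpna4, a nuclear import receptor gene (SD 0.0448). The fifth was the ID with the most reads, NONMMUG005057, with Atp5b, which encodes the beta subunit of mitochondrial ATP synthase. It had 27334, 28829, 31998 and 32286 raw counts in stiff 1 to 4, where Atp5b had 48947, 53727, 58293 and 60280 raw counts. In soft 1 to 4 it had 27841, 21547, 23187 and 39116 raw counts, where Atp5b had 54636, 42273, 43701 and 72764. The ratio lay between 0.510 and 0.558 although the counts of either spanned over 1.5-fold, and without soft 4 its SD was 0.0498. Atp5b was chosen with soft 4 included, so this SD is no separate check of the likeness. None of these 5 coding genes was called between the substrates (edgeR adjusted p = 0.99997 for each).

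Among the other IDs with many reads, chosen here after their values were seen, NONMMUG016423 and NONMMUG016421 had the same nearest gene. It was Fstl1, which encodes a secreted glycoprotein made by heart mesenchyme and epicardium. NONMMUG016423 held 0.364 to 0.418 of the counts of Fstl1 (SD 0.0611) and NONMMUG016421 held 0.132 to 0.156 (SD 0.0990). Fstl1 stood at 1239, 1715, 2155 and 2099 coding CPM in stiff 1 to 4 and at 1602, 1557, 2501 and 2086 in soft 1 to 4. Libraries 3 and 4 were thus high on either substrate, as for both IDs, which follows from the choice of a gene by its steady ratio. NONMMUG016071 was nearest to Btg1, an antiproliferative gene, with 2.57 to 2.91 times its counts (SD 0.0639). NONMMUG024269 was nearest to Echs1 (0.0624) and NONMMUG039523 to Idh3b (0.0571), which encode mitochondrial enzymes of fatty acid oxidation and of the citric acid cycle.

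The nearest genes of the IDs at the ends of the first component were also read. NONMMUG023774, high in soft 4, was nearest to Mybpc3, which encodes cardiac myosin-binding protein C of the sarcomere. The ID had 0.144 to 0.165 of the counts of Mybpc3 (SD 0.0756, and 0.0816 without soft 4, which was included when Mybpc3 was chosen). Mybpc3 stood at 1163, 861, 1385 and 1623 coding CPM in stiff 1 to 4 and at 1254, 847, 1088 and 2668 in soft 1 to 4. NONMMUG039864 was nearest to Jup, the gene of plakoglobin in the cell junctions of the heart (SD 0.0921). The other 3 IDs of that end were nearest to Prelid1, a gene of mitochondrial lipid transfer (NONMMUG011061, SD 0.0647), to Trip6, a focal adhesion adaptor gene (NONMMUG037825, 0.115), and to Cdc34, a ubiquitin-conjugating enzyme gene (NONMMUG042978, 0.118). NONMMUG015983, low in soft 4, was nearest to Klhl24, a ubiquitin ligase adaptor gene, at 0.472 to 0.576 of its counts (SD 0.0891). Klhl24 stood at 593, 623, 355 and 273 coding CPM on stiff and at 550.2, 615, 361 and 234 on soft. The other 4 IDs of that end were nearest to Dpy19l4 (NONMMUG016753, SD 0.0806), to Acvr2a, an activin receptor gene (NONMMUG017587, 0.108), to Lats1, a kinase gene of the Hippo pathway (NONMMUG024029, 0.118), and to Zfp729a, a zinc finger gene (NONMMUG016826, 0.128).

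**Figure D5:**
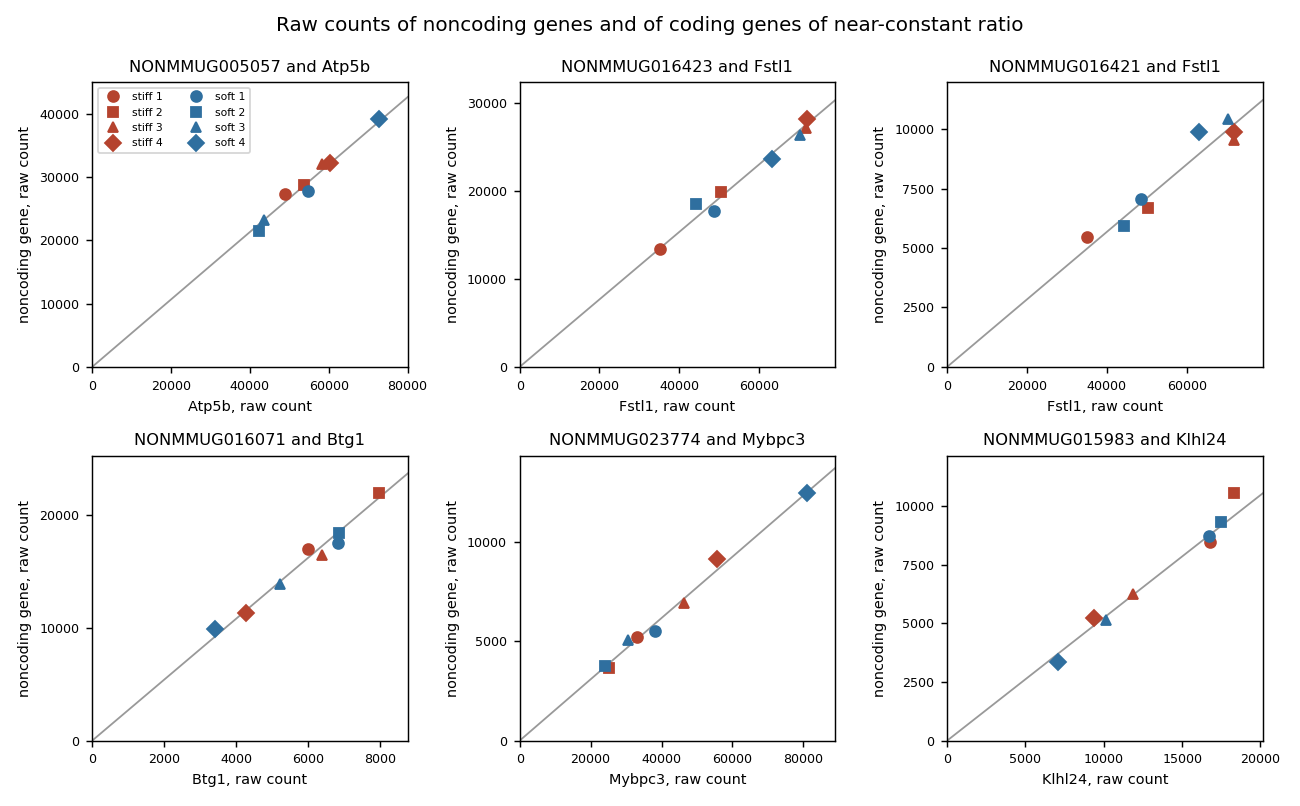
Raw counts of 6 IDs (y axis) and of the coding gene of steadiest ratio to each (x axis, 5 genes). Each panel has 1 point for each of 4 stiff (red) and 4 soft (blue) libraries and a grey line at the mean ratio. Points follow the line in each panel, as for NONMMUG005057 at 0.510 to 0.558 of the counts of Atp5b, and red and blue points are mixed along it.

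Noncoding RNAs whose names are known can be read in the coding table. Of 49 listed, 13 had a row under that symbol and 11 passed the filter. None of the 11 was called between the substrates (edgeR, against 0% of 14059 coding genes), and 0 had an unadjusted p under 0.05 (0.925% in the table). Estimates were higher on stiff for 4 and lower for 7, with a median log2 fold change of -0.02 beside -0.01 over the table. By DESeq2 there were also 0 at an unadjusted p under 0.05, and 1 by limma-voom.

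The most abundant by reads was Rn7sk, the small RNA that holds the elongation factor P-TEFb inactive, at 3630.1 ± 897 coding CPM on stiff and 4811 ± 1531 on soft. H19, an imprinted RNA of fetal tissues, stood at 715, 963, 1162 and 149 coding CPM in stiff 1 to 4 and at 609.9, 860.3, 1294 and 238 in soft 1 to 4, so that library 4 was the lowest of each substrate. Mir99ahg, the host of a microRNA cluster, stood at 352 ± 81.7 on stiff and 357 ± 98.6 on soft. Rmrp, the RNA of a ribonuclease that acts on ribosomal RNA precursors, stood at 92.0, 97.5, 319.5 and 129 on stiff and at 223, 123, 434 and 942 on soft. Its log2 fold change was -1.43 (SE 0.70, edgeR adjusted p = 0.99997), and its groups overlapped. Rpph1, the RNA of ribonuclease P, stood at 122 ± 65.7 coding CPM on stiff and 411 ± 601 on soft, where soft 4 alone held 1309.7. Tug1, a long noncoding RNA with roles in several tissues, stood at 182 ± 26.4 on stiff and 156 ± 23.1 on soft.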

How the data were processed

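The authors deposited raw counts, whole numbers of reads per gene and library, in a coding and a noncoding table. Per the submitters' processing notes, the build was GRCm38 and the tools were HTSeq 0.6.1, TopHat2 2.0.14, TopHat, Bowtie2, FastQC 0.11.2, Cufflinks, edgeR and DESeq2, with no role given. How strand was handled, and which noncoding annotation was used, is not given in the sources used here, so reads of an ID and of a gene that overlaps it cannot be told apart. The labels name no molecular identifiers, so counting error is a lower limit.

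Libraries were grouped by substrate and numbered in the order of the samples. Counts were analysed with edgeR 4.0.16 in R 4.3.3: filterByExpr (minimum count 10, minimum total 15), TMM factors within each table, a robust quasi-likelihood fit on substrate alone, tested with glmQLFTest, and Benjamini-Hochberg adjustment over each table. Fold changes are stiff over soft. DESeq2 1.42.0, limma-voom (limma 3.58.1), other factors and filters, joined tables, a replicate block and each library left out in turn were the alternatives. In counts simulated for the stiff and soft comparison of 5747 noncoding genes, the test recovered 23 of 67 genes altered 4-fold, 1 of 67 altered 2-fold and 0 of 66 altered 1.5-fold, and made 2 false calls. The altered genes were drawn from all 5747, most of which have wider intervals than the 152. Recovery among the 152 was therefore not measured.

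The IDs and lists were chosen with earlier results of these data known. Named by rule were the 10 IDs of highest level, the 4 of lowest p in each direction, the 3 with the largest and the 3 with the smallest coefficient of variation, those next to the threshold, consecutive IDs and the 5 closest pairs of each kind. Of the marker lists, the sums of mural markers were 356 to 523 coding CPM on stiff and 341 to 625 on soft, of epicardial markers 451 to 531 on stiff and 472 to 596 on soft, of endothelial markers 87.3 to 146 on stiff and 75.1 to 129 on soft, and of leukocyte markers 105 to 152 on stiff and 109 to 175 on soft.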

Additional observations from a re-analysis of the deposited data

Results flagged for a closer look

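In 66 groups of 4 libraries examined, 3 had a library whose gap to its nearest neighbour took more of the group's range than Dixon's 95% critical value allows. For groups chosen without regard to their values, chance flags about 1 group in 20. That rate cannot be applied here, because IDs were named for their level, p or spread. NONMMUG008476 was named for its largest within-substrate coefficient of variation. NONMMUG008476 had 1862.3 noncoding CPM in soft 4, against 633 to 812 in the other soft libraries. Rpph1 had 1309.7 coding CPM in soft 4, against 47.5 to 154 in the other soft libraries. Rmrp had 319.5 coding CPM in stiff 3, against 92.0 to 129 in the other stiff libraries.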

How the results depend on the processing

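No alternative changed a call: 0 noncoding IDs, 0 of the 152 and 0 of the 11 named RNAs passed an adjusted p of 0.05 in any run, with 43 to 567 noncoding IDs at an unadjusted p under 0.05. Without soft 2, NONMMUG016266 had an unadjusted p of 0.0341 (edgeR adjusted p = 0.99997). The median log2 fold change of the 152 stayed between -0.016 and 0.033, and between -0.048 and 0.040 with each library left out. Left-out libraries moved their share of noncoding counts within 22.7% to 24.9% on stiff and 22.1% to 24.4% on soft. Without the 3 left-out IDs in the total it was 36.87% on stiff and 36.94% on soft, and of coding plus noncoding counts it was 1.659% on stiff and 1.64% on soft. A threshold of 500 counts gave 356 IDs and one of 2000 gave 61. Signs near 0 turned. The log2 fold change of NONMMUG005057 (-0.006) was 0.005 with DESeq2's factors and in DESeq2, 0.008 with upper-quartile factors, 0.015 with none, 0.022 in limma-voom and with coding-table factors, and 0.018 with both tables joined. That of NONMMUG024269 (0.003) was -0.002 without a filter, -0.017 in limma-voom and -0.005 without the 3 IDs, where NONMMUG038408 (0.006) had -0.003. The cause was not tested. With a replicate block they were 0.027 for NONMMUG005057 and -0.005 for NONMMUG024269, the calls were 0, and 91 noncoding IDs had an unadjusted p under 0.05. The labels name no pairing, although library codes end in 1 to 4 on each substrate. The leading part of the codes differs between soft and stiff, and what it marks is not stated. Substrate and whatever it marks cannot be told apart. Deviations of same-numbered libraries 1 to 4 correlated at -0.02, 0.68, 0.48 and 0.28 over the 152, at 0.18, 0.30, 0.22 and 0.38 over coding genes, and at -0.012 to 0.08 over all noncoding IDs. Over the 152 and over coding genes, stiff 2, 3 and 4 each correlated best with the soft library of their own number and stiff 1 did not, a hint from the data that part of the spread follows the number. With each library left out, log2 fold changes ran from -0.103 to 0.185 for NONMMUG005057, -0.091 to 0.085 for NONMMUG024269, -0.210 to 0.036 for NONMMUG016423, -0.156 to 0.233 for NONMMUG016071, -0.209 to 0.021 for NONMMUG039523, -0.379 to 0.042 for NONMMUG005229, -0.112 to 0.226 for NONMMUG019341, -0.085 to 0.104 for NONMMUG038408, -0.462 to 0.009 for NONMMUG039864, -0.273 to 0.498 for NONMMUG008476, -0.442 to 0.226 for NONMMUG023774 and -0.137 to 0.345 for NONMMUG015983. Without a change of sign they ran from -0.347 to -0.074 for NONMMUG016421, 0.023 to 0.204 for NONMMUG016425, 0.126 to 0.333 for NONMMUG045629, 0.042 to 0.319 for NONMMUG039919 and -0.415 to -0.157 for NONMMUG006159.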

Other observations

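The 152 IDs were unevenly spread over the ID numbers. The 3000 IDs numbered from 15000 on, a block picked after the values were seen, hold 38 of them (25.0%), beside 807 of the 5747 tested IDs and 6.46% of the table. At least 1 library reached 1000 raw counts for 426 IDs. All 4 stiff libraries did so for 196 and all 4 soft libraries for 158, and 44 did so in all stiff but not all soft libraries, against 6 in all soft but not all stiff libraries. Raw counts carry the depth of each library, and noncoding totals averaged 2349739 on stiff and 2245886 on soft. No ID reached 1000 in all libraries of one substrate and in none of the other.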
